A study of Mus musculus with 27 samples.

Results

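The 10 enzymes that build fatty acids and triglycerides from citrate, Acly, Me1, Acaca, Acacb, Fasn, Elovl6, Scd1, Agpat2, Dgat1 and Dgat2, were followed through the repair of injured mouse muscle. They were picked by name among the 55852 entries of the injured muscle table and were all found there. Cardiotoxin (CTX), a snake venom peptide that destroys myofibers and sets off regeneration, was injected into the muscle of wild-type (WT) mice and of mice lacking gasdermin E (Gsdme), a protein that forms pores in the plasma membrane during pyroptotic cell death. Gastrocnemius muscle was collected 1, 4, 7 and 14 days later (D1, D4, D7 and D14), with 3 libraries for each genotype and day, and 3 libraries of control WT muscle were set against the WT D1 libraries in a separate table, which gave 27 libraries in all. The study's methods describe the controls as contralateral uninjured muscle, the animals as male, the WT mice as C57BL/6J and the KO as global, so Gsdme was missing from every cell type and not from 1 lineage. The titles name these animals KO, while the genotype field of the labels says knockdown. The methods also state that crosses of heterozygotes gave KO and WT littermates, without saying which WT mice were sequenced. The background of the KO mice and ages are not given in the sources used here.

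Levels are given in TPM, a library's share of transcripts corrected for transcript length. In whole muscle, fewer cells of a type and less RNA per cell cannot be told apart. Gsdme stood at 0.95 to 2.17 TPM in the 12 KO libraries and at 1.46 to 4.85 TPM in the 12 injured WT libraries. Every KO library was below every WT library on D1, D4 and D7, but the genotypes overlapped on D14 (1.27 to 1.96 TPM in KO, 1.46 to 2.26 TPM in WT). Which part of the gene was deleted is not given in the sources used here, so its level is a limited check of the labels. Some libraries stood apart from their groups by their cell type markers. KO D4 replicate 2 had a summed macrophage marker level (5 genes) of 369 TPM against 3176 and 2686 TPM in the other 2 KO D4 libraries, and WT D1 replicate 3 had 662 TPM against 1942 and 2933 TPM. Both were rich in myofiber and white adipocyte markers for their group, so several results that rest on them are also given without them. The study's methods describe more than 1 batch of RNA-seq and the labels name none, so comparisons of WT D1 with KO D1, with WT D4 or with control may run across batches. KO D7 replicate 2 had 390.2 TPM of macrophage markers against 1039 and 1012 TPM.

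Fatty acid synthesis starts in the cytosol, where citrate exported from mitochondria is cleaved to acetyl-CoA, carboxylated to malonyl-CoA and condensed to palmitate. Palmitate is then elongated and desaturated, and the fatty acids are attached to a glycerol backbone to give phosphatidic acid, diglyceride and finally triglyceride. In mammals the pathway is most active in fat, liver and lactating mammary gland and is low in resting myofibers, and its genes are driven by the transcription factors SREBP-1c (Srebf1) and ChREBP (Mlxipl).

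RefSeq promoter windows, 250 bases before to 50 after a transcription start on GRCm38.p6, were held for 7 of the 10 genes (Fasn, Acaca, Acacb, Acly, Elovl6, Me1 and Agpat2) and not for Scd1, Dgat1 and Dgat2. Scd1 lies at chr19:44394455-44407879 (minus strand) on GRCm38. They are shown for the 4 held genes with the highest fold of KO over WT on D14 and for Me1, which passed 2 tests over time. Capitals mark a CCAAT box (CCAAT) or an Sp1-type GC box (GGGCGG), on either strand.
Fasn: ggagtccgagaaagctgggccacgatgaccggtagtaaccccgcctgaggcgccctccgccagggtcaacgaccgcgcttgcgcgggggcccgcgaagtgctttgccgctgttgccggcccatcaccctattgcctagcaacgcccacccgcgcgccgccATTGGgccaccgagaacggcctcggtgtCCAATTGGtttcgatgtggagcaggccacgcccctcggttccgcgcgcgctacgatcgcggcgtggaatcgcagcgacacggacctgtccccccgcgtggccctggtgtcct
Acaca: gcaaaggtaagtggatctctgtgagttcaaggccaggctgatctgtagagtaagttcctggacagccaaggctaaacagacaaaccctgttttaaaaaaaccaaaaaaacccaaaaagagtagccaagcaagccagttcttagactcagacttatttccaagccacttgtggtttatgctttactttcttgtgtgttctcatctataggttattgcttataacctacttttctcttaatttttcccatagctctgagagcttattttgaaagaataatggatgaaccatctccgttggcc
Agpat2: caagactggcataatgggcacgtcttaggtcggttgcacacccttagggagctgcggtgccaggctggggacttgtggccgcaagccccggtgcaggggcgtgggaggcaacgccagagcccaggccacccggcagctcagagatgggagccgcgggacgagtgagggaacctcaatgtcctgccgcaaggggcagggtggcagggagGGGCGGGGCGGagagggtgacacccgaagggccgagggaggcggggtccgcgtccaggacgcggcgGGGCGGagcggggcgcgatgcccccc
Elovl6: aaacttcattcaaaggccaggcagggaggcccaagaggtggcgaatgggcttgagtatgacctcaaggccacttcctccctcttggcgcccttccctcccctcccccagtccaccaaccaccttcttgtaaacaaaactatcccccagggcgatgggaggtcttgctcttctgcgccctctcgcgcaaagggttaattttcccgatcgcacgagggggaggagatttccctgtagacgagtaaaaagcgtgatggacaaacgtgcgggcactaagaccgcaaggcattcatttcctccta
Me1: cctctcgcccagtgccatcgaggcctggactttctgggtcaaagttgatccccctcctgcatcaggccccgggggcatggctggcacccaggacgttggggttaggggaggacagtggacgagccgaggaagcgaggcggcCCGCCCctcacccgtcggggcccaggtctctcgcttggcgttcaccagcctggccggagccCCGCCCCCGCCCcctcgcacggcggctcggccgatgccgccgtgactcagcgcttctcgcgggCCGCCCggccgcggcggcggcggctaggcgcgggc
The Fasn window lies at chr11:120824498-120824797 (minus strand), that of Acaca at chr11:84195188-84195487 (plus strand), that of Agpat2 at chr2:26604368-26604667 (minus strand), that of Elovl6 at chr3:129532136-129532435 (plus strand) and that of Me1 at chr9:86695865-86696164 (minus strand). A second Me1 window (chr9:86687228-86687527), not shown, held a CCAAT box and no GC box. Acaca has several starts, and its window falls inside the annotated gene (chr11:84129672-84401651). The Fasn window held 3 CCAAT boxes, 90, 62 and 59 bases upstream of the start, of which the last pair overlap on opposite strands. The Agpat2 window held 3 GC boxes, 2 of them overlapping, the Me1 window shown held 4, and the Acaca and Elovl6 windows held neither motif. A CCAAT box was present in 37.4% and a GC box in 35.7% of all 32851 promoter windows. None of the 7 genes' windows held the sterol regulatory element TCACNCCAC, found in 1.24% of all windows, or the E-box CACGTG, found in 7.15%. A match is a run of letters and not a binding site, and a missing match says only that these letters are not in this window.

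In uninjured muscle the order of the levels was set by Me1, the cytosolic malic enzyme that supplies NADPH for lipid synthesis, at 93.8 ± 3.34 TPM (SD, n = 3). Acacb, the acetyl-CoA carboxylase isoform at the mitochondrial surface whose malonyl-CoA restrains fatty acid oxidation, followed at 62.4 ± 9.92 TPM. Scd1, the desaturase that makes oleate from stearate, stood at 53.2 ± 9.0 TPM, and its libraries overlapped those of Acacb. Dgat2, Fasn and Acly came next at 20.3 ± 6.65, 17.3 ± 0.832 and 13.5 ± 3.80 TPM, with overlap between neighbours. Dgat1, Agpat2 and Acaca lay at 8.45 ± 0.899, 6.33 ± 0.26 and 5.93 ± 0.479 TPM, and Elovl6, which elongates palmitate, lay at only 0.317 ± 0.085 TPM. The plot of the enzymes in each library shows the same values beside the injured groups.

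**Figure D1:**
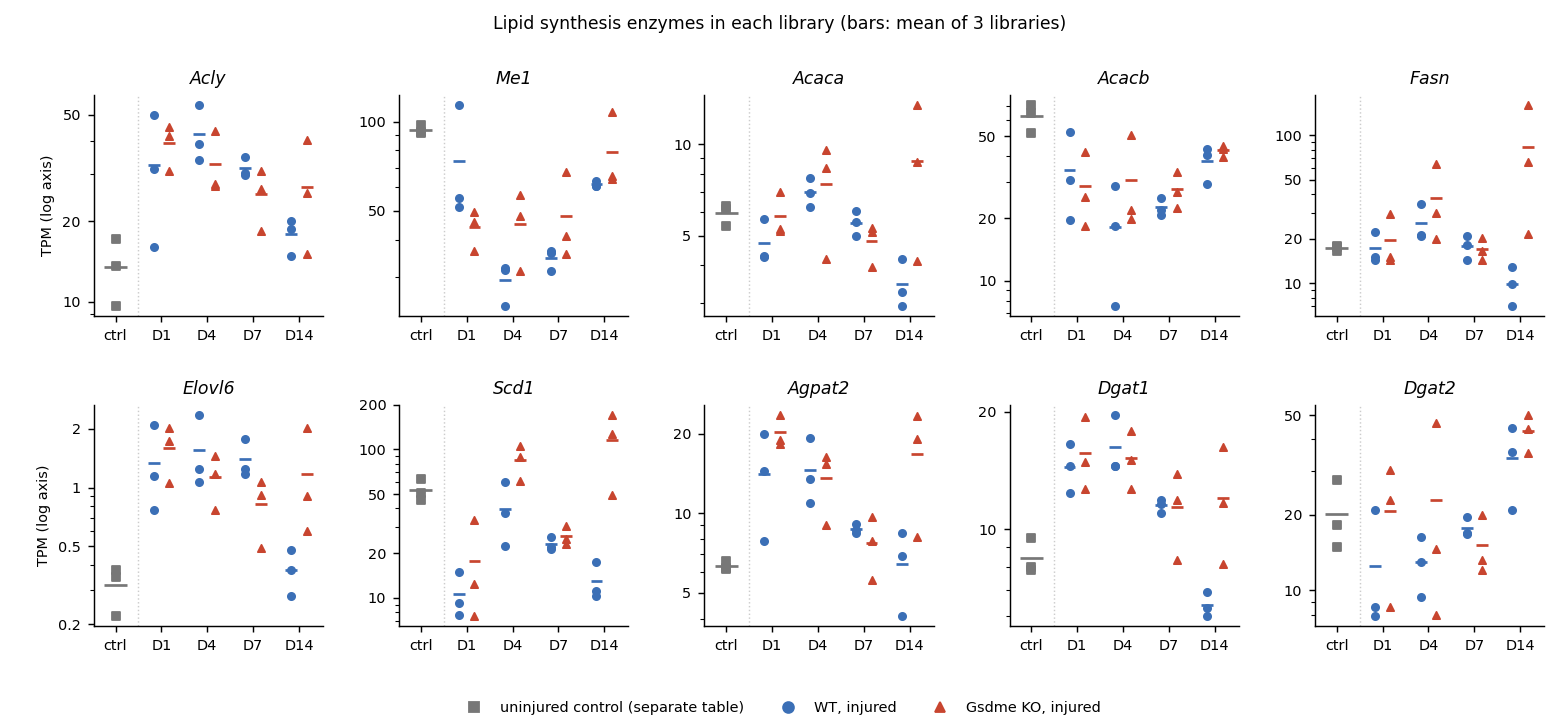
Level of each enzyme (TPM, log axis) in every library of control muscle (grey squares, from the separate table), injured WT muscle (blue circles) and injured KO muscle (red triangles) on D1 to D14, with bars at the mean of 3 libraries. On D14 the KO libraries reach 171 TPM for Scd1 and 161 TPM for Fasn, while no WT library on that day is above 17.4 or 12.98 TPM.

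The first comparison asked what injury did within a day in WT muscle. Scd1 fell 4.63-fold, while Acly, Agpat2 and Dgat1 rose and Acacb fell. Scd1 was at 9.72, 9.86 and 14.8 TPM on D1 and at 45.8, 50.5 and 63.2 TPM in control muscle, without overlap (log2 difference -2.13 ± 0.217 SE; limma adjusted p = 0.000988). Agpat2, which adds the second fatty acid to the glycerol backbone, rose from 6.17 to 6.63 TPM in control muscle to 14.4, 20.0 and 7.89 TPM (log2 difference 0.96, adjusted p = 0.0251). Acly, the ATP citrate lyase that makes cytosolic acetyl-CoA, rose by 1.11 on the log2 scale (adjusted p = 0.0351), and Dgat1, which completes triglyceride, by 0.69 (adjusted p = 0.015). Acacb fell by 0.94 (adjusted p = 0.0333).

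With limma, 5 of the 9 enzymes tested passed an adjusted p of 0.05 (Elovl6 was under the filter on low values), against 61.1% of the 13041 genes tested. The median gene was 0.66 higher on D1 on the log2 scale, so the rise of Dgat1 was close to that of all genes, and it turned into a difference of -0.04 or -0.10 when libraries were scaled by median of ratios or quantiles. The rises of Acly and Agpat2 shrank to 0.36 and 0.24 with median-of-ratios scaling and did not pass (adjusted p of 0.38 and 0.416), nor did either pass without a filter. Acacb did not pass without a filter (adjusted p = 0.099) or without any 1 library except WT D1 replicate 3. Scd1 went the other way from the median gene and passed in all 15 alternative fits. Fasn did not pass, at 14.9, 22.3 and 14.3 TPM on D1 against 16.4, 18 and 17.6 TPM in control muscle (log2 difference -0.04, 95% interval -0.51 to 0.44). All 6 white adipocyte markers tested fell with Scd1, with a median of -2.34, and all 5 macrophage markers rose, with a median of 2.98. The part of these cells in the enzyme values was not tested. WT D1 replicate 3, the library nearest to control muscle by its markers, had the highest Scd1, Acacb and Me1 and the lowest Acly and Agpat2 of the 3, and without it Scd1 differed by -2.31.

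In WT muscle the enzymes then took separate courses. From D1 to D4 Scd1 rose 3.77-fold, from 7.61, 9.19 and 14.9 TPM to 60.2, 37.3 and 22.3 TPM, without overlap (log2 difference 1.76 ± 0.461 SE, limma adjusted p = 0.0106). Over the same step Me1 fell 2.52-fold, from 55.1, 51.5 and 114 TPM to 23.9, 32.0 and 31.6 TPM (log2 difference -1.22 ± 0.287 SE, adjusted p = 0.00528). These 2 of 10 enzymes passed where 19.8% of the 15718 genes tested did. Without WT D1 replicate 3 Me1 differed by -0.86 (adjusted p = 0.0412), and in a fit of only these groups it did not pass (adjusted p = 0.0626). Without WT D4 replicate 1, the highest of its group, Scd1 differed by 1.42 with an adjusted p of 0.0618.

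From D4 to D7 in WT muscle no enzyme passed, against 12.3% of all genes. At an unadjusted p under 0.05 (limma) the count was 0 of 10, beside 33.5% of all genes. From D7 to D14 Dgat1 fell from 11.9, 11.04 and 11.6 TPM to 6.90, 5.99 and 6.29 TPM (log2 difference -0.76, adjusted p = 0.0174). Elovl6 fell from 1.77, 1.18 and 1.25 TPM to 0.48, 0.38 and 0.28 TPM (log2 difference -0.79, adjusted p = 0.0279), and Me1 rose from 36.0, 31.3 and 36.5 TPM to 60.8, 60.5 and 63.1 TPM (log2 difference 0.81, adjusted p = 0.039). These 3 of 10 stand beside 31.8% of all genes, and the median gene differed by -0.45 on the log2 scale, so a downward step was common. The falls of Dgat1 and Elovl6 did not pass with median-of-ratios scaling (adjusted p of 0.283 and 0.0647), and Me1 did not pass once any 1 of the 6 libraries was left out (adjusted p 0.063 to 0.117). The 5 macrophage and 4 proliferation markers fell over the same step, each below an adjusted p of 0.05.

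In KO muscle Scd1 was again the enzyme that passed from D1 to D4. It rose 4.81-fold, from 33.2, 12.4 and 7.53 TPM to 88.1, 106 and 61.1 TPM (log2 difference 2.41 ± 0.461 SE, limma adjusted p = 0.00194), and was the only 1 of 10 to pass, against 19.4% of all genes. In a fit of only these groups the adjusted p was 0.0635, and without single libraries Scd1 differed by 1.97 to 2.97. From D4 to D7 no enzyme passed, nor did any of the 15718 genes (0%). With limma, 1 enzyme had an unadjusted p under 0.05, beside 9.89% of all genes. Scd1 was then at 30.5, 23.1 and 24.8 TPM, below every KO D4 library (log2 difference -1.64, adjusted p = 0.248).

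From D7 to D14 in KO muscle the enzymes had higher means on the later day, although no enzyme passed the adjusted test (6 at an unadjusted p under 0.05, limma) and only 0.56% of all genes did (19.3% at an unadjusted p under 0.05). All 10 enzymes had a higher mean log2 level on D14 than on D7, with a median difference of 0.68, while the median of all genes was -0.19. Scd1 was 4.44-fold and Fasn, the synthase that assembles palmitate, 4.88-fold higher on D14 (adjusted p of 0.0613 and 0.101), and Dgat2 was 2.86-fold higher (adjusted p = 0.148). In WT muscle the same step gave log2 differences of -0.82 for Scd1 and -0.80 for Fasn (adjusted p of 0.165 and 0.212), and 0.83 for Dgat2. Without KO D14 replicate 2 the count of higher enzymes in KO was 7 of 10, and the folds of Scd1 and Fasn were 3.38 and 2.57. Without KO D7 replicate 2 the count was 8 of 10. With median-of-ratios or quantile scaling 3 of the 10 passed in KO, given here without the share of all genes in those fits.

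The main comparison set KO against WT muscle on each day. On D14, Scd1 was at 49.1, 171 and 128 TPM in KO and at 10.2, 17.4 and 11.1 TPM in WT muscle. Every KO library was above every WT library, and the means differed 8.97-fold (log2 difference 2.93 ± 0.461 SE, 95% interval 1.96 to 3.89). Fasn was at 21.4, 161 and 65.8 TPM in KO and at 9.85, 12.98 and 7.03 TPM in WT muscle, again without overlap, and the means differed 8.30-fold (log2 difference 2.54 ± 0.505 SE, 95% interval 1.49 to 3.6). The KO libraries spread widely, and replicate 1 held the lowest value of both genes.

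Neither gene passed the adjusted test on D14. Scd1 had the smallest p-value of the 15718 genes tested that day (limma adjusted p = 0.0646), and Fasn had rank 4 (adjusted p = 0.22). With limma, 0 of 10 enzymes passed on D14 (6 at an unadjusted p under 0.05), as did 0% of all genes (2.06% at an unadjusted p under 0.05). An exact two-sided permutation test gave p = 0.1 for each, the smallest it can give for 3 against 3 libraries. The call turned on single choices. Scd1 passed with a filter of 5 TPM (adjusted p = 0.0447), and Scd1 and Fasn passed with library quality weights (adjusted p of 0.0073 and 0.0168). Scd1, Fasn and Acaca passed without KO D14 replicate 1. The share of all genes passing in these fits is not given here, so these calls cannot be set against it. Without KO D14 replicate 2, the highest library, Scd1 differed by 2.56 (adjusted p = 0.828) and Fasn by 1.86 (adjusted p = 1.0), and the folds of the means were 6.83 and 4.38. Scd1 and Fasn also stand in gene lists that the study drew from these samples, so their direction here is no independent evidence.

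Acaca, the cytosolic acetyl-CoA carboxylase that commits acetyl-CoA to fatty acid synthesis, was at 4.13, 13.5 and 8.78 TPM in KO and at 4.19, 2.94 and 3.26 TPM in WT muscle on D14. Only the lowest KO library fell within the WT range (log2 difference 1.02 ± 0.289 SE, adjusted p = 0.638). Agpat2 showed the same layout, at 8.15, 23.3 and 19.0 TPM in KO and 8.39, 6.89 and 4.09 TPM in WT (log2 difference 1.19 ± 0.35 SE, adjusted p = 0.743). Dgat1 was at 8.13, 16.3 and 11.7 TPM in KO and at 6.90, 5.99 and 6.29 TPM in WT, without overlap (log2 difference 0.77 ± 0.217 SE, adjusted p = 0.638). Elovl6 did not overlap either, at 0.6, 2.02 and 0.91 TPM in KO and 0.48, 0.38 and 0.28 TPM in WT (log2 difference 0.61, adjusted p = 1.0). In each of these 4 genes KO replicate 1 was the lowest and replicate 2 the highest KO library.

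The other 4 enzymes differed less on D14. Me1 was at 65.6, 108 and 63.9 TPM in KO and within 60.5 to 63.1 TPM in WT, a narrow gap without overlap (log2 difference 0.32, 95% interval -0.28 to 0.92). Acly, Dgat2 and Acacb overlapped between genotypes, with log2 differences of 0.47, 0.40 and 0.19 and 95% intervals that reached from below 0 to 1.19, 1.44 and 1.05. All 10 enzymes were higher in KO by their mean, with a median log2 difference of 0.69, and the count stayed at 10 of 10 without any 1 library of the day. Over all genes 72% were higher, with a median of 0.08. For 5 of the 10 (Scd1, Fasn, Dgat1, Elovl6 and Me1) every KO library was above every WT library, as for 7.37% of all genes tested. The median-of-ratios and quantile scalings gave medians of 0.66 and 0.62 for the 10 enzymes.

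**Figure D2:**
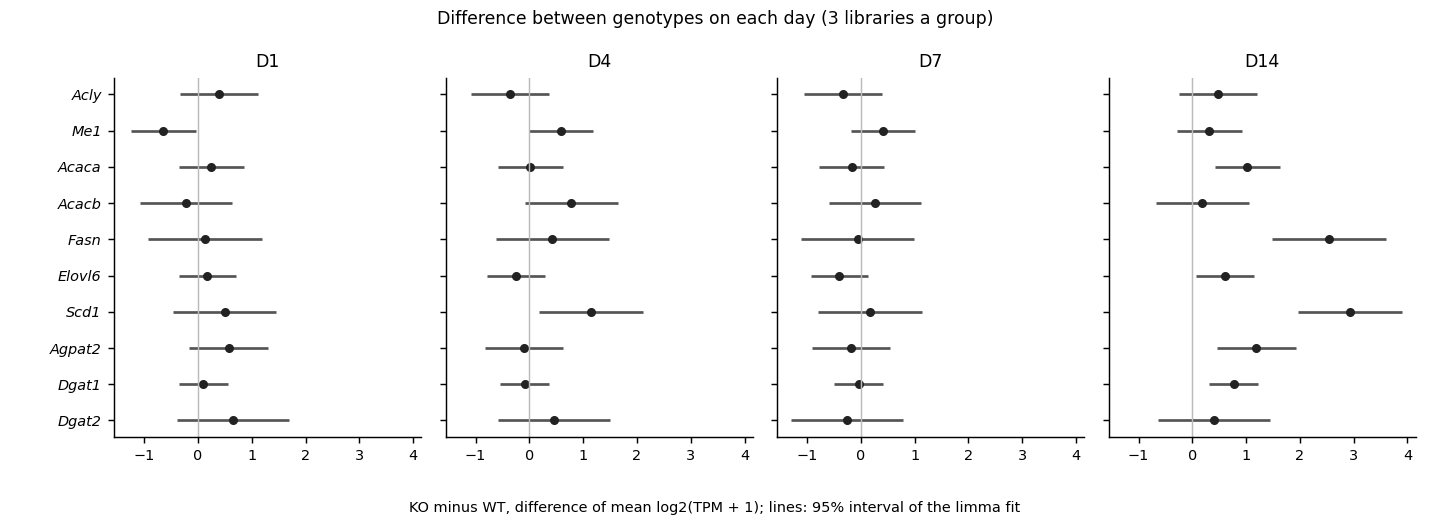
Difference of the mean log2(TPM + 1) between KO and WT muscle (points) with its 95% interval from the limma fit (lines) for the 10 enzymes, 1 panel for each day, 3 libraries a group. On D14 all 10 points are above 0 and the Scd1 and Fasn intervals start at 1.96 and 1.49, while on the other days only the Me1 interval on D1 and the Scd1 interval on D4 leave out 0.

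On D4, Scd1 was at 88.1, 106 and 61.1 TPM in KO and at 60.2, 37.3 and 22.3 TPM in WT muscle. The groups did not overlap, though the lowest KO and the highest WT library nearly met (log2 difference 1.15, 95% interval 0.18 to 2.11, limma adjusted p = 0.212). Scd1 was the only 1 of 10 enzymes with every KO library above every WT library on D4, as were 2.77% of all genes. No enzyme passed on D4, and neither did any gene (0%). With limma, 1 of 10 enzymes had an unadjusted p under 0.05, beside 22.7% of all genes. Of the 10 enzymes 6 were higher in KO by their mean, with a median of 0.22, while only 23.4% of all genes were higher, with a median of -0.28. Without KO D4 replicate 2, which held the highest Fasn, Acaca, Acacb, Scd1, Dgat2, Me1 and Agpat2 of its group, 4 of 10 were higher with a median of -0.11, and Scd1 differed by 0.97. The summed white adipocyte markers on D4 were 335, 1128 and 319 TPM in KO and 367, 154 and 116 TPM in WT, and all 5 macrophage markers had lower means in KO with a median of -1.10. Their part in the D4 values was not tested.

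On D7 the genotypes lay close together, and no enzyme passed, nor any gene (0%). At an unadjusted p under 0.05 (limma) the count was 0 of 10, beside 3.06% of all genes. By their mean 3 of 10 enzymes were higher in KO, beside 20.5% of all genes. Without KO D7 replicate 2 that count was 6 of 10, given here without the share of all genes. Scd1 was at 30.5, 23.1 and 24.8 TPM in KO and at 22.1, 21.4 and 25.5 TPM in WT (log2 difference 0.17, 95% interval -0.79 to 1.13), and Fasn differed by -0.06 (95% interval -1.12 to 0.99). Elovl6 was lower in KO without overlap, at 0.92, 0.49 and 1.07 TPM against 1.77, 1.18 and 1.25 TPM (log2 difference -0.40). On D1 no enzyme passed, against 0.00636% of all genes. An unadjusted p under 0.05 (limma) was found for 1 of 10, beside 5.38% of all genes. Me1 was lower in KO without overlap, at 36.5, 45.9 and 49.4 TPM against 55.1, 51.5 and 114 TPM (log2 difference -0.64, adjusted p = 0.873), with the highest WT value in replicate 3. These single cases compare with 16.5% of all genes without overlap in either direction on D7 and 6.71% on D1.

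Averaged over the 4 days, all 10 enzymes were higher in KO by their mean, with a median of 0.26 against -0.07 for all genes. Scd1 differed by 1.19 ± 0.231 SE and Fasn by 0.76 ± 0.252 SE, and Acly, at 0.04, and Elovl6, at 0.03, changed sign when KO D14 replicate 2 or WT D1 replicate 3 was left out, and Acly also without KO D4 replicate 1 or KO D7 replicate 1. No enzyme passed, against 0.00636% of all genes, and the lowest limma adjusted p was 0.178 for Scd1. At an unadjusted p under 0.05 the count was 3 of 10, beside 3.54% of all genes. An exact permutation of the genotypes within days, which allows 160000 assignments, gave two-sided p = 0.00211 for Scd1 and p = 0.0342 for Fasn, neither adjusted for the 10 enzymes looked at. Whether the genotype difference varied between days was tested directly with an F test in limma. None of the 10 enzymes passed, nor did any gene (0%), and the adjusted p was 0.527 for Scd1 and for Fasn. At an unadjusted p under 0.05 in this F test the count was 6 of 10, beside 7.65% of all genes. With library quality weights 5 of the 10 passed the F test, a count given here without the share of all genes in that fit. The average over days, its permutation test and the F test all include the D1 difference between genotypes, which may run across batches. The D14 comparisons between genotypes and the steps from D7 to D14 share the D14 libraries.

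Most white adipocyte markers had higher means in KO than in WT muscle on D14, as did Scd1 and Fasn. The summed level of 8 such genes (Adipoq, Plin1, Cidec, Lep, Retn, Cfd, Adrb3 and Aqp7) on D14 was 324, 1278 and 941 TPM in KO and 58.9, 92.1 and 61.4 TPM in WT muscle. Of the 8 markers 7 were higher in KO on D14 with a median log2 difference of 2.95, none passed the adjusted test and 7 had an unadjusted p under 0.05. Adipoq, the adipocyte hormone adiponectin, was at 18.2, 72.2 and 48.9 TPM in KO and at 2.65, 4.92 and 2.20 TPM in WT, in the same order over the KO libraries as Scd1 and Fasn. Of 4 brown adipocyte markers, Ucp1, the defining gene of brown fat, was at 0 to 0.25 TPM over the injured libraries, and the sum of the list (365 to 3238 TPM) was nearly all Cox8b, at 2081 to 2509 TPM in KO and 1983 to 2201 TPM in WT muscle on D14. The 5 liver genes summed to 0.64 to 5.93 TPM over the injured libraries. In control muscle they summed to 0.44, 25.5 and 0.57 TPM. The 5 Schwann cell markers, genes of the myelin sheath of nerves, summed to 153, 579 and 464 TPM in KO and 195, 270.4 and 119 TPM in WT muscle on D14, with overlap between genotypes and in the same order over the KO libraries as Scd1. All 5 had higher means in KO, with a median log2 difference of 0.67, and none passed or had an unadjusted p under 0.05. KO D4 replicate 2 held 1681 TPM of them against 480 and 240 TPM in the other KO D4 libraries. Myofiber markers (9 genes) did not separate the genotypes on D14, at sums of 87807 to 94394 TPM in KO and 92939 to 96533 TPM in WT. The part of adipocytes and of nerve in the enzyme levels was not tested.

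Over the 24 injured libraries the log2 level of Scd1 followed that of Adipoq with a Pearson r of 0.947, and its deviations from the group means did so with r = 0.898. These correlations describe libraries that share groups and are given without a test. For Fasn the values were 0.777 and 0.575, for Acaca 0.689 and 0.451, and for the other 7 enzymes the level gave at most 0.335. In WT D1 replicate 3 Scd1 stood at 14.9 TPM with Adipoq at 16.8 TPM, a ratio of 0.887 that was the lowest of the 24. Divided by Adipoq within each library, Scd1 was at 2.37 to 2.70 in KO and 3.54 to 5.06 in WT muscle on D14, and Fasn at 1.18 to 2.22 in KO and 2.64 to 3.72 in WT. Per unit of Adipoq both genes were thus lower in KO than in WT, without overlap, where the WT ratios rest on Adipoq levels under 5 TPM.

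**Figure D3:**
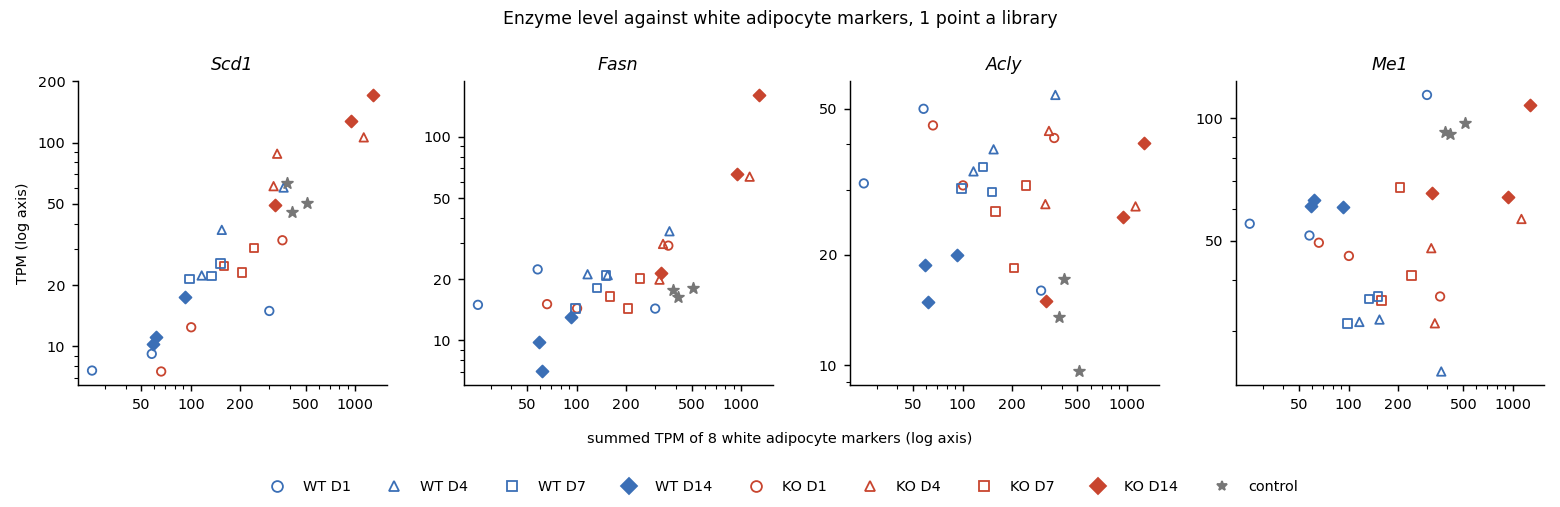
Level of Scd1, Fasn, Acly and Me1 (TPM, log axis) against the summed TPM of 8 white adipocyte markers (log axis), 1 point a library, colored by genotype with a symbol for each day (filled diamonds D14, stars control muscle). Scd1 rises along the marker axis from 7.61 TPM to 171 TPM, while Acly and Me1 scatter across it.

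Set beside control muscle, whose values come from the separately made table and were not tested against D14, KO muscle on D14 held 2.18 times the control mean of Scd1 and 4.76 times that of Fasn. For Adipoq and Plin1, which coats the lipid droplets of adipocytes, the same ratios were 1.62 and 1.96. Without KO D14 replicate 2 the ratios were 1.66 for Scd1 and 2.51 for Fasn. WT muscle on D14 held 0.243 of the control mean of Scd1, 0.574 of Fasn and 0.114 of Adipoq. Agpat2 and Elovl6 in KO muscle stood at 2.66 and 3.72 times control (2.15 and 2.38 without that library), whereas Acacb and Me1 stood at 0.684 and 0.844. The 3 WT D1 libraries were listed in both tables and agreed to within 0.1 TPM for Fasn, Elovl6, Dgat2 and Agpat2. Acaca was at 4.29, 5.68 and 4.27 TPM in the injured table and 4.54, 6.01 and 4.73 TPM in the control table. Dgat1 was at 12.4, 16.5 and 14.5 TPM and 12.2, 16.3 and 14.4 TPM. Scd1 was at 7.61, 9.19 and 14.9 TPM in the injured table and 9.72, 9.86 and 14.8 TPM in the control table. Its paralog Scd2 was at 19.1, 27.8 and 21.2 TPM and 14.1, 20.1 and 15.3 TPM. How reads were shared between Scd1 and Scd2 is not given in the sources used here, so small differences in Scd1 are uncertain. Why Acaca differed between the tables is not given either, and small differences in Acaca are uncertain as well.

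The 10 enzymes did not vary as a single group. Over the 24 injured libraries Fasn, Acaca and Scd1 went together (r of 0.904 for Fasn with Acaca and 0.837 for Fasn with Scd1). Acly, Elovl6 and Dgat1 formed a second set (r of 0.911 for Acly with Elovl6 and 0.842 for Dgat1 with Elovl6) and had lower means on D14 than on D1 and D4 in WT muscle. Acacb and Me1 went together (r = 0.765) and opposite to Acly (r of -0.672 and -0.57), and had their lowest WT means on D4. Agpat2 went with members of the first and of the second set (r of 0.751 with Acaca, 0.765 with Acly and 0.777 with Elovl6). The genes most like an enzyme were taken as the 3 highest r among the tested genes outside the 10, and are given for some enzymes. They were Adipoq, Cdo1 and Mup22 for Scd1 (r of 0.947, 0.942 and 0.929), Car5b, Ptger3 and Mrap for Fasn (0.912, 0.898 and 0.876), and Car5b, Slc25a1 and Fcor for Acaca (0.93, 0.854 and 0.817). For Me1 the nearest gene was Prkab2 (0.96), a subunit of the energy sensor AMPK. For Dgat2 they were BC048679, Lpl and Acadvl (0.958, 0.948 and 0.942).

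The ratio of the isozymes within each pair changed through repair. Acacb exceeded Acaca 9.58- to 11.3-fold in control muscle and 10- to 12.5-fold in WT muscle on D14, while on D4 in WT the ratio was 0.973, 2.96 and 4.14. In KO muscle on D14 it was 9.58, 3.32 and 4.95, below every WT library, and the lower ratios came with higher Acaca, since Acacb was at 39.6 to 44.9 TPM in KO and 29.5 to 43.3 TPM in WT. Dgat2, the other enzyme that completes triglyceride, exceeded Dgat1 1.86- to 3.51-fold in control muscle. In WT muscle on D4 the ratio of Dgat2 to Dgat1 was 0.479 to 1.12. On D14 Dgat2 exceeded Dgat1 6.46-, 3.5- and 5.68-fold in WT and 4.36-, 2.69- and 4.29-fold in KO. These ratios are descriptions within libraries and were not tested.

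**Figure D4:**
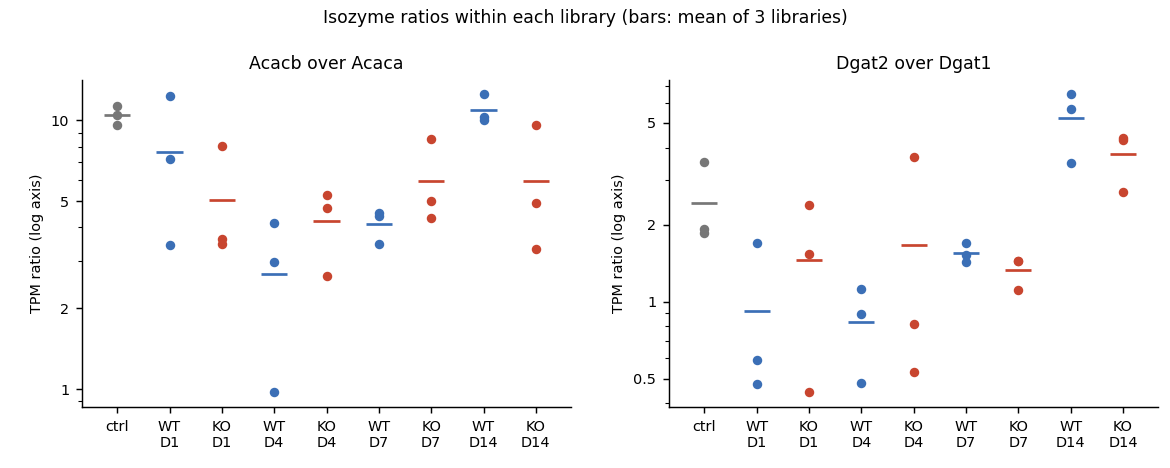
Ratio of the TPM of Acacb to Acaca and of Dgat2 to Dgat1 (log axis) in each library of control muscle (grey), WT (blue) and KO (red) muscle on D1 to D14, with bars at the mean of 3 libraries. The Acacb to Acaca ratio of the 3 WT libraries on D14 is at least 10 and that of the KO libraries at most 9.58.

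Of 54 further genes of lipid synthesis 45 were tested in the injured table, and the 9 others (Elovl2, Elovl3, Elovl4, Elovl7, Scd3, Scd4, Gpat2, Mogat1 and Mogat2) were below the filter. None passed between KO and WT on any day (7 of 45 at an unadjusted p under 0.05 on D14, beside 2.06% of all genes, and 12 of 45 on D4, beside 22.7%, limma). On D14, 41 of the 45 were higher in KO with a median log2 difference of 0.19, against 72% and 0.08 for all genes. The largest differences were those of Slc25a1, the carrier that exports citrate from mitochondria (1.63 ± 0.337 SE, adjusted p = 0.22), Thrsp, a lipogenic protein abundant in fat (1.14, adjusted p = 0.739), and Slc25a10, the mitochondrial dicarboxylate carrier (1.10, adjusted p = 0.366). Slc25a1 was at 22.6 ± 10.6 TPM in KO and 6.32 ± 2.41 TPM in WT. On D4 only 9 of the 45 were higher, with a median of -0.35, and the largest differences were those of Thrsp (1.24), the desaturase-like Fads3 (-1.04) and Mlxipl (0.88), all with adjusted p of at least 0.212.

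Neither Srebf1 nor Mlxipl passed between genotypes. Srebf1 was at 10.2 to 18.4 TPM in KO and 9.71 to 12.7 TPM in WT muscle on D14, and at 21.9 to 24.6 TPM and 24.3 to 29.1 TPM on D4. Mlxipl was at 38.5 to 39.3 TPM in KO on D14 and 21.3 to 35.7 TPM in WT, without overlap. Over time in WT muscle Srebf1 rose from D1 to D4 (0.85, adjusted p = 0.00345) and fell from D4 to D7 (-0.64, adjusted p = 0.0364), and Thrsp rose from D4 to D7 (2.10, adjusted p = 0.00259), a step at which Scd1 and Fasn did not pass. From D4 to D7 in WT muscle 1 of the 45 genes rose and 9 fell, beside 478 and 1463 of the 15718 genes tested. From D1 to D4 in WT muscle 10 of the 45 rose, beside 14.6% of all genes. Over that step 2 fell, beside 828 of the 15718 genes tested. The fatty acid desaturases Fads1, Fads2 and Scd2 were among those that rose (0.80, 0.77 and 1.65). Those that fell were Gpam and Lpin1, which act in glycerolipid assembly (-1.03 and -1.85). From D7 to D14, 23 of the 45 fell, beside 30.9% of all genes. Only Lpin1 rose (0.86), beside 145 of the 15718 genes tested. Those that fell included 9 of 11 elongation and desaturation genes, with Scd2 at -1.86, and 5 of 8 genes of acetyl-CoA and NADPH supply, with Slc25a1 at -1.13 and Pgd at -1.36, while the median of all genes was -0.45. In KO muscle over that step 1 of the 45 passed, beside 0.56% of all genes. It was Hacd1, which acts in chain elongation (-0.78, limma adjusted p = 0.0254). From D1 to D4 in KO muscle 6 of the 45 rose and 9 fell, beside 1128 and 1921 of the 15718 genes tested. From D4 to D7 in KO muscle none of the 45 passed, nor did any gene (0%). From control muscle to WT D1, 25 of the 45 rose, beside 55.4% of all genes. Of the 45, 4 fell (Acsl1, Mdh1, Nnt and Tecr), beside 736 of the 13041 genes tested. The NADPH producers Pgd and G6pdx were at 2.38 and 1.69, beside a median of 0.66 for all genes.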

How the data were processed

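TPM values were deposited by the authors in 2 tables made separately, 1 of 24 injured libraries and 1 of 3 control and the same 3 WT D1 libraries, aligned to mm10 per the submitters' processing notes. The aligner and the counter are not given in the sources used here. TPM keeps no read depth, so depth per library is unknown and no counting interval is given. The libraries had 11785 to 14704 genes at 1 TPM or more. Libraries were SMARTER mRNA paired-end Illumina libraries described as biological triplicates. The study's methods describe 2 batches of RNA-seq, injured and contralateral muscle at D1 in the first and WT and KO muscle on D1 to D14 in the second. The labels give no batch, and both tables list WT D1, so WT D1 may be of another batch than KO D1 and the later WT days. In those comparisons batch and group cannot be told apart.

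Genes with at least 1 TPM in at least 3 libraries (15718 and 13041 genes) were fitted as log2(TPM + 1) with limma 3.58.1 in R 4.3.3, with all groups of a table in 1 fit, a variance trend and Benjamini-Hochberg adjustment over all genes. Fold changes quoted as fold are ratios of mean TPM, and log2 differences understate changes of low genes. Controls were tested only against WT D1 of their own table. Since the study's methods describe contralateral muscle, control and WT D1 libraries may come from the same mice. The main fit took them as independent. A fit with a replicate block also gave 5 enzymes, but it pairs muscles only if the replicate numbers follow the mice. All 10 enzymes are named. Not every pathway gene that passed is named. Those named passed or, for KO against WT on D4 and D14, had 1 of the 3 largest differences. A few were given for their role as transcription factors, chosen after their values were seen. The members and lists were chosen with earlier results of these data known. The fit was tested on simulated data. Library quality weights used the gene-by-gene estimator of limma, chosen after the default had not converged.

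Replicate numbers come from the titles. Deviations of same-numbered libraries correlated above 0.1 in all 3 pairs only for KO D4 with D1 (0.192, 0.377 and 0.255) and KO D7 with D4 (0.283, 0.442 and 0.13), which come from different animals collected on different days.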

Additional observations from a re-analysis of the deposited data

How the results depend on the processing

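The count of enzymes passing between KO and WT on D14, 0 as reported, was 1 with a filter of 5 TPM, 2 with library quality weights and 0 to 3 when 1 library was left out. It was 0 on D4 and D7 in every alternative, and 2 on D1 and 1 over the averaged days with quality weights, with 0 to 1 over the averaged days when 1 library was left out. The test of a difference between days gave 5 with quality weights. For WT D4 against D1 (2 as reported) the count was 1 with only the groups compared and 1 to 3 without single libraries. For WT D7 against D4 and KO D7 against D4 it was 1 with quality weights. For WT D14 against D7 (3 as reported) it was 1 without a filter, with median-of-ratios scaling and with quantile normalization, 6 with quality weights, 9 with only the groups compared and 0 to 2 without single libraries. For KO D4 against D1 (1 as reported) it was 4 with quality weights and 0 with only the groups compared. For KO D14 against D7 (0 as reported) it was 1 with a pseudocount of 5 TPM or the 50 most abundant genes removed, 3 with either scaling, 6 with quality weights, 2 with only the groups compared and 0 to 2 without single libraries. For WT D1 against control (5 as reported) it was 3 without a filter and 6 with median-of-ratios scaling or the 50 most abundant genes removed. In that comparison it was 7 with quality weights and 1 to 6 without single libraries. The share of all genes passing in each alternative is not given here, so these counts cannot be set against it.

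On D4 small log2 differences changed sign. With quality weights Fasn was -7.86e-05, Acaca -0.38, Dgat2 -0.51 and Dgat1 0.0493. With median-of-ratios scaling, quantile normalization and the 50 most abundant genes removed Dgat1 was 0.24, 0.22 and 0.15 and Agpat2 0.23, 0.21 and 0.14. Without single libraries Fasn ranged from -0.025 to 0.791, Acaca from -0.19 to 0.33, Dgat1 from -0.207 to 0.0472, Dgat2 from -0.20 to 1.00 and Agpat2 from -0.27 to 0.15. Averaged over days Dgat2 was -0.0604 with quality weights, and without single libraries Acly ranged from -0.0676 to 0.131 and Elovl6 from -0.031 to 0.0896. Dgat1 in WT D1 against control was -0.035 with median-of-ratios scaling and -0.101 with quantile normalization. The cause of these changes was not tested.

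Scd1 and Fasn on D14 kept their direction in all 16 alternative fits, from 2.56 to 3.45 and from 1.86 to 3.28. A fit with a replicate block changed no count of enzymes (0 on D14). Leaving out a library leaves 2 libraries in a group, and with 3 a group the exact test could not go below 0.1.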
